A study of Canis lupus familiaris with 18 samples.

Results

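The comparison described here is that of the right ventricle (RV) of dogs after 2 weeks of rapid ventricular pacing with the right ventricle of control dogs, and it rests on 6 of the 18 arrays of the series. The study hybridised total RNA from the RV and the right atrium (RA) of dogs to Affymetrix Canine_2 arrays, with 3 arrays for each chamber and condition. The RV early heart failure (HF) group was paced at a fast ventricular rate for 2 weeks (3 arrays), the RV late HF group for 5 weeks (3 arrays), and the RV control group is called control in the labels (3 arrays). RA early HF and RA control arrays (3 each), from the same 2 conditions, enter a comparison of the chambers. The protocol text gives ranges of 2 to 3 and 5 to 6 weeks. The animals were adult mongrels or beagles, and neither the breed of each dog nor its identity is stated, nor is it said whether controls carried a pacemaker. The replicates are called biological but their dogs are not identified, so a p-value here weighs a difference against the spread among these particular arrays. The tissue was a small piece of each chamber with all its cell types. The values are log2 signals per probe set, so a difference of 1 is a 2-fold change. Of 15115 genes with a probe set of their own symbol, 10988 passed the signal filter, which left out the lowest 40% of probe sets by mean signal, and each gene is represented by its brightest probe set. All 10988 genes are compared, and 46 lists of pathway genes and cell type markers group them.

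Fast ventricular pacing in dogs is a standard way of producing a dilated, weakly contracting heart. The right ventricle is a thin-walled pump that drives blood through the lungs. Its working myocytes depend on the respiratory chain and on fatty acids for energy, and hold their force-producing filaments in sarcomeres bounded by Z-discs and centred on M-bands. In failing hearts generally, stretched myocytes are known to raise natriuretic peptide transcripts and to lower transcripts of oxidative metabolism, while fibroblasts lay down extracellular matrix.

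The 6 RV arrays carried the markers of their chamber. MYL2, the ventricular regulatory light chain, had log2 signals of 14.42, 14.19 and 14.41 in the early HF arrays, against 14.13, 14.17 and 14.16 in the control arrays, while the RA control arrays had 6.51, 6.04 and 9.38. MYL4, the atrial essential light chain, was lower in the RV, at 10.88, 7.98 and 10.36 in the early HF arrays, against 8.10, 7.89 and 10.39 in the control arrays, while it lay at 14.02, 14.03 and 13.98 in the RA control arrays. Early HF arrays 1 and 3 and control array 3 had more MYL4 signal than the other RV arrays of these groups. The distance between 3′ and 5′ probe sets of GAPDH, a sign of RNA quality, was 1.09 to 1.42 in early HF and 1.05 to 1.25 in control. For EF1A this distance was 8.19 to 8.76 in early HF and 8.01 to 8.28 in control, so the groups overlapped on both measures. Early HF array 2 stood nearer to the controls than the other early HF arrays: its mean correlation with the control arrays over the probe sets was 0.982, against 0.968 for early HF array 1 and 0.978 for early HF array 3. The mean correlation of early HF array 2 was 0.984 with the late HF arrays and 0.979 with the other early HF arrays. It had 59 genes more than 1 unit from the control mean, while early HF array 1 had 190 and early HF array 3 had 91.

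In limma's moderated test, with p-values adjusted by Benjamini-Hochberg over all 25752 probe sets tested, 30 of 10988 genes passed an adjusted p of 0.05, which is 0.273% of the genes. Of these, 21 (0.191%) were higher and 9 (0.0819%) were lower in early HF, and none of the 30 had overlapping groups. After quantile normalization the split was 25 higher and 25 lower. At an unadjusted p under 0.05 the counts were 645 higher (5.87%) and 655 lower (5.96%), and the median log2 fold change over all genes was -0.01. The groups did not overlap in 771 genes with higher early HF arrays (7.02%) and in 987 with lower ones (8.98%). The 30 genes included proteins of the M-band, Z-disc and cell junctions, receptors and signalling proteins, enzymes, matrix proteins and members of the nerve and Schwann cell marker list. In the plot of these 30 genes by array, the early HF points stand clear of the control points in every row.

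**Figure D1:**
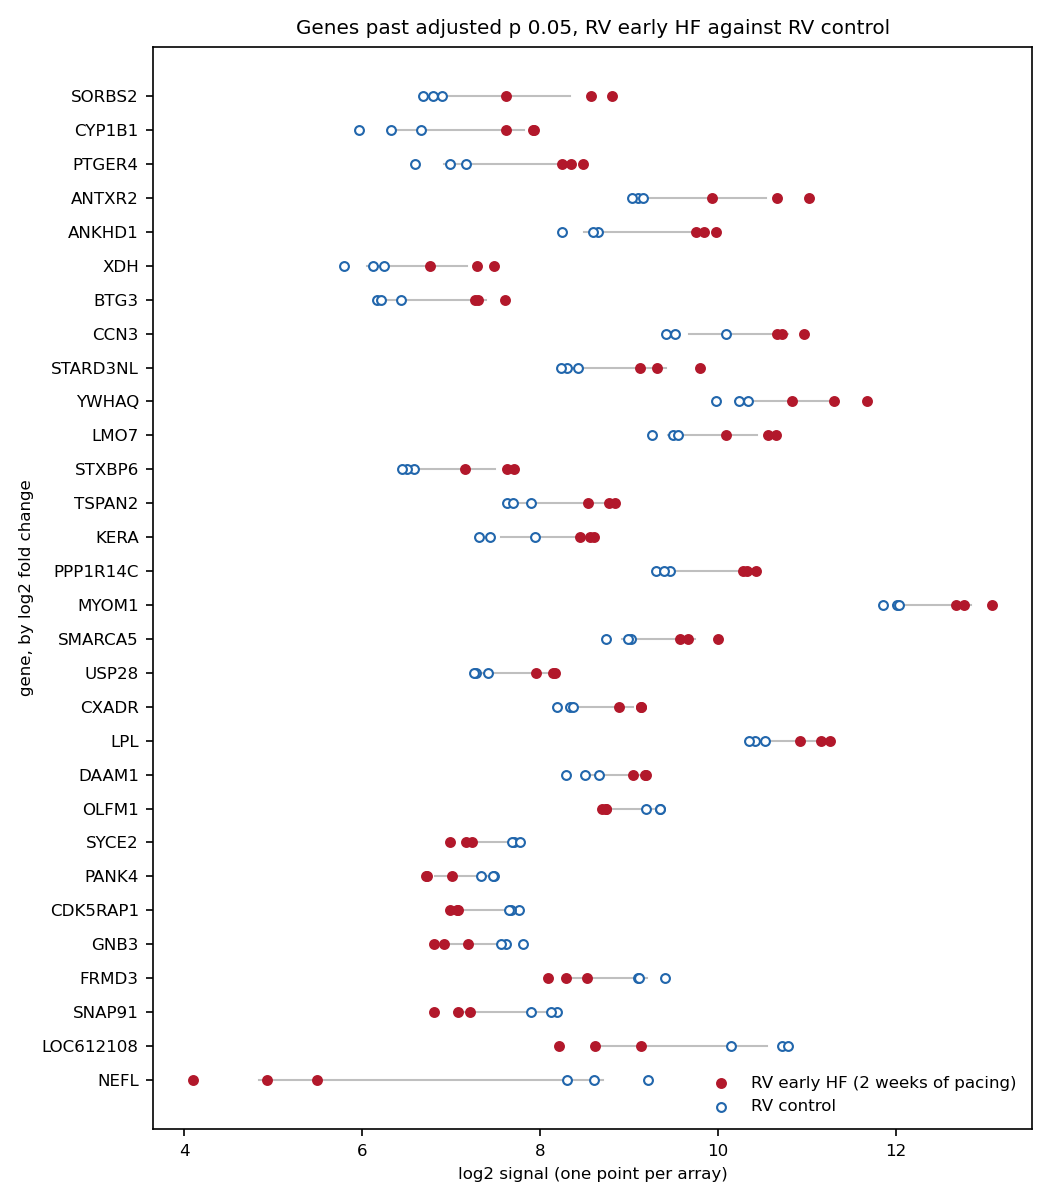
Log2 signal in each of the 3 RV early HF arrays (filled points) and the 3 RV control arrays (open points) for the 30 genes past an adjusted p of 0.05, ordered by log2 fold change, with a grey line joining the group means. The arrays of the 2 groups do not overlap in any row, and the widest gap is that of NEFL.

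Several of the genes that rose encode proteins of the contractile apparatus or of cell junctions, a grouping made after the calls were seen. MYOM1, the myomesin that crosslinks myosin filaments at the M-band, had log2 signals of 13.08, 12.68 and 12.77 in the early HF arrays, against 12.01, 12.03 and 11.85 in the control arrays. The change was 1.84-fold (log2 fold change 0.88, SE 0.11, adjusted p = 0.0229) on top of a very high control level, and its 2 probe sets both passed. SORBS2, an adaptor protein of Z-discs and intercalated discs, measured 8.57, 7.61 and 8.81 in the early HF arrays, against 6.79, 6.89 and 6.68 in the control arrays. Its log2 fold change was 1.54 (SE 0.25, adjusted p = 0.0383), the highest of all 30, with early HF array 2 lowest of its group but above every control. LMO7, a LIM domain protein of adherens junctions, gave 10.56, 10.09 and 10.65 in the early HF arrays, against 9.49, 9.55 and 9.26 in the control arrays (log2 fold change 1.00, SE 0.15, adjusted p = 0.0299). Of its 5 probe sets above the signal filter, 4 were higher in early HF. CXADR, the coxsackievirus and adenovirus receptor of the intercalated disc, gave 9.13, 9.13 and 8.88 in the early HF arrays, against 8.34, 8.37 and 8.19 in the control arrays. All of its 3 probe sets were higher, and the one used here had a log2 fold change of 0.75 (SE 0.11, adjusted p = 0.0261).

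The gene with the smallest p of the comparison was PTGER4, which encodes the EP4 receptor for prostaglandin E2. Its log2 signal was 8.25, 8.48 and 8.35 in the early HF arrays, against 7.17, 6.59 and 6.98 in the control arrays, a 2.73-fold rise (log2 fold change 1.45, SE 0.14, adjusted p = 0.0112) with little spread within the early HF group. Other signalling genes moved in both directions. PPP1R14C, an inhibitor of protein phosphatase 1, rose, with 10.28, 10.32 and 10.43 in the early HF arrays, against 9.46, 9.30 and 9.39 in the control arrays (log2 fold change 0.96, SE 0.14, adjusted p = 0.0253). Of its 5 probe sets above the filter 3 passed, and the others differed by 0.07 and 0.12. YWHAQ, the 14-3-3 protein theta, had values of 11.67, 10.83 and 11.30 in the early HF arrays, against 10.34, 9.98 and 10.24 in the control arrays. It rose by 1.08 on the log2 scale (SE 0.19, adjusted p = 0.0475), close to the threshold. Its other probe set differed by 0.44 and did not pass (adjusted p = 0.431), with overlapping groups. GNB3, a G protein beta subunit, fell, with 6.81, 7.19 and 6.92 in the early HF arrays, against 7.81, 7.61 and 7.56 in the control arrays (log2 fold change -0.69, SE 0.12, adjusted p = 0.0421). Its highest early HF array lay below its lowest control array.

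Enzymes and transport proteins of metabolism made up a further group. LPL, the lipase that frees fatty acids from circulating triglycerides, had 10.92, 11.26 and 11.16 in the early HF arrays, against 10.42, 10.53 and 10.35 in the control arrays, and all 3 early HF arrays were above the controls (log2 fold change 0.68, SE 0.12, adjusted p = 0.0438). CYP1B1, a cytochrome P450 that metabolises steroids and aromatic compounds, had 7.93, 7.92 and 7.61 in the early HF arrays, against 6.66, 6.32 and 5.96 in the control arrays. This was a rise of 2.84-fold (log2 fold change 1.51, SE 0.18, adjusted p = 0.0196). The other probe set of CYP1B1 was higher by 0.62 and did not pass (adjusted p = 0.144). XDH, the xanthine dehydrogenase that makes uric acid, measured 7.48, 7.29 and 6.76 in the early HF arrays, against 5.79, 6.12 and 6.24 in the control arrays. Early HF array 3 was the lowest of its group but still above the controls (log2 fold change 1.13, SE 0.19, adjusted p = 0.0411). STARD3NL, a late endosomal protein of membrane contact sites, rose by 1.09 on the log2 scale (SE 0.18, adjusted p = 0.0383). In the other direction, CDK5RAP1, which modifies mitochondrial tRNAs, had 6.98, 7.06 and 7.08 in the early HF arrays, against 7.76, 7.67 and 7.65 in the control arrays (log2 fold change -0.65, SE 0.10, adjusted p = 0.0383). PANK4, a member of the pantothenate kinase family, fell by 0.61 on the log2 scale (SE 0.10, adjusted p = 0.0411), although 1 of its 3 probe sets above the filter was not lower.

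In the matrix lists CCN3 was the member past the threshold. This matricellular protein of the CCN family had log2 signals of 10.72, 10.97 and 10.66 in the early HF arrays, against 9.51, 9.41 and 10.09 in the control arrays. All of its 4 probe sets were higher, 3 of them past the threshold (log2 fold change 1.11, SE 0.17, adjusted p = 0.0299). KERA and ANTXR2, which are in no list, were placed beside it after the calls were seen. KERA, the small leucine-rich proteoglycan keratocan, had 8.56, 8.60 and 8.45 in the early HF arrays, against 7.44, 7.94 and 7.31 in the control arrays (log2 fold change 0.97, SE 0.16, adjusted p = 0.0411). Its early HF arrays were tight and control array 2 was the highest of the controls. ANTXR2, a membrane receptor that binds matrix proteins and anthrax toxin, had 11.02, 9.93 and 10.66 in the early HF arrays, against 9.10, 9.15 and 9.03 in the control arrays, and early HF array 2 again lay lowest in its group (log2 fold change 1.44, SE 0.24, adjusted p = 0.0421).

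Of the remaining genes that rose, several act in the nucleus or in growth control. ANKHD1, an ankyrin repeat and KH domain protein, measured 9.75, 9.84 and 9.98 in the early HF arrays, against 8.65, 8.59 and 8.24 in the control arrays (log2 fold change 1.36, SE 0.16, adjusted p = 0.0179). Of its 6 probe sets above the filter, 2 passed, at 1.36 and 2.14, while the others lay between -0.20 and 0.14 and did not pass. BTG3, an antiproliferative protein, measured 7.27, 7.60 and 7.30 in the early HF arrays, against 6.43, 6.16 and 6.21 in the control arrays (log2 fold change 1.12, SE 0.17, adjusted p = 0.0279). Its other probe sets above the filter differed by 0.06 and 0.60 and did not pass. USP28, a deubiquitinating enzyme, had 8.17, 7.95 and 8.14 in the early HF arrays, against 7.28, 7.41 and 7.26 in the control arrays (log2 fold change 0.77, SE 0.10, adjusted p = 0.0229), and its second probe set above the filter was not higher. STXBP6, a protein that binds SNARE complexes of vesicle fusion, rose by 0.98 and TSPAN2, a tetraspanin of the cell membrane, by 0.98 on the log2 scale, with adjusted p of 0.0383 and 0.0244. SMARCA5, the motor of ISWI chromatin remodelling complexes, and DAAM1, a formin that assembles actin filaments, were named after their values were seen and had log2 fold changes of 0.83 and 0.65 with adjusted p of 0.0383 and 0.0475.

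Among the 9 genes that fell (0.0819% of all genes), 3 belong to the list of nerve and Schwann cell markers. That list was chosen with earlier results of these data known, so their membership is no separate support for a change in nerve cells. NEFL, the light chain of neurofilaments, had 4.93, 5.49 and 4.10 in the early HF arrays, against 8.30, 9.21 and 8.60 in the control arrays. The early HF mean of 4.84 lay under 5.31, the limit of the signal filter, so its log2 fold change of -3.86 (SE 0.58, adjusted p = 0.0299) is to be read as a lower bound of the fall. SNAP91, a clathrin assembly protein of nerve endings, had 7.07, 6.81 and 7.21 in the early HF arrays, against 8.19, 8.12 and 7.90 in the control arrays (log2 fold change -1.04, SE 0.15, adjusted p = 0.0244). OLFM1, a secreted neural glycoprotein, had 8.70, 8.74 and 8.74 in the early HF arrays, against 9.35, 9.35 and 9.19 in the control arrays (log2 fold change -0.57, SE 0.10, adjusted p = 0.0421), and both of its probe sets above the filter passed. Of the 18 nerve and Schwann cell markers tested, the other 15 did not pass, and the median log2 fold change of the list was -0.01. The mean log2 signal over the list was 6.55 to 6.62 in early HF and 6.74 to 6.88 in control, a gap carried by NEFL: without NEFL the means overlapped, at 6.61 to 6.72 in early HF and 6.65 to 6.74 in control. Over the 15 markers that did not pass they were 6.45 to 6.56 in early HF and 6.37 to 6.49 in control. These are bulk samples, in which fewer cells of a type and less RNA per cell cannot be told apart. LOC612108, a locus without a gene name in the annotation, fell with 8.21, 9.13 and 8.62 in the early HF arrays, against 10.72, 10.79 and 10.14 in the control arrays (log2 fold change -1.90, SE 0.29, adjusted p = 0.0299). FRMD3, a FERM domain protein, fell by 0.90 on the log2 scale (adjusted p = 0.0383), with its other probe set not lower. SYCE2, known for its part in the synaptonemal complex of meiosis, fell by 0.59 (adjusted p = 0.0299).

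The number of genes past the threshold depended on single arrays. Without early HF array 2 it was 226, with 172 higher (1.57% of all genes) and 54 lower (0.491%), and all 30 genes were among them. This fit was singled out after array 2 was seen to lie nearest the controls, and leaving out such an array tends to widen differences by itself. Its values below therefore show how far a result hung on array 2, and are no separate support for it. In that fit 6.98% of all genes were higher and 6.24% lower at an unadjusted p under 0.05, and over the fits that left out 1 array these shares ran from 4.37% to 6.98% and from 4.01% to 6.24%. The number past the threshold was 8 without early HF array 1 and 3 without early HF array 3. Without control array 1, 2 or 3 it was 4, 1 or 5, and without late HF array 1 or 2, which share the fit's estimate of spread, it was 13 or 18. The 30 genes kept their direction in each of these fits. PTGER4 passed in all 23 of the alternatives that kept its probe set in the test, and ANKHD1 and CYP1B1 in 22 of 24.

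Sarcomere and Z-disc genes had higher values more often than lower ones. Of 44 such genes tested, MYOM1 alone passed, and 19 had higher and 2 lower values at an unadjusted p under 0.05, against 5.87% and 5.96% of all genes. The median log2 fold change of the list was 0.25, against -0.01 for all genes. MYOT, the Z-disc protein myotilin, had log2 signals of 8.26, 7.14 and 9.06 in the early HF arrays, against 5.07, 6.38 and 5.86 in the control arrays. The groups did not overlap and the difference was 2.38 (SE 0.49), yet the adjusted p was 0.0817. LMOD2, which lengthens thin filaments, gave 11.98, 11.27 and 11.81 in the early HF arrays, against 10.98, 10.90 and 10.81 in the control arrays (log2 fold change 0.79, SE 0.16, adjusted p = 0.0737). NEBL, the nebulin-like protein of the Z-disc, gave 9.39, 9.34 and 9.46 in the early HF arrays, against 7.81, 8.56 and 8.53 in the control arrays (log2 fold change 1.10, SE 0.24, adjusted p = 0.0929). Early HF array 2 was nearest the controls for MYOT and LMOD2. The median shift of the list from the control mean was 0.33, 0.08 and 0.35 in early HF arrays 1, 2 and 3. Without array 2, 12 of the list's genes passed as higher and 0 as lower, against 1.57% and 0.491% of all genes in that fit, and MYOT and LMOD2 were among them. MYH7, the slow myosin heavy chain, had 14.14, 14.12 and 14.09 in the early HF arrays, against 14.18, 14.07 and 14.03 in the control arrays (log2 fold change 0.02, adjusted p = 0.944).

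Genes of junctions and of the stressed myocyte had smaller or more variable differences. Over all genes, 5.87% had higher and 5.96% lower values at an unadjusted p under 0.05. In the fit without early HF array 2, 1.57% of all genes passed as higher and 0.491% as lower. Of 36 genes of gap junctions and intercalated discs, CXADR passed, and 10 had higher and 0 lower values at an unadjusted p under 0.05 (list median 0.10). In the fit without early HF array 2, 6 of them passed, ANK3 and PKP2 included. ANK3, the ankyrin G that anchors channels, had 12.22, 11.41 and 12.02 in the early HF arrays, against 11.04, 10.88 and 11.15 in the control arrays (log2 fold change 0.86, SE 0.18, adjusted p = 0.0817), and the groups did not overlap. PKP2, the desmosomal plakophilin, had 8.17, 7.88 and 8.13 in the early HF arrays, against 7.16, 7.65 and 7.52 in the control arrays (log2 fold change 0.62, SE 0.13, adjusted p = 0.0879), again without overlap. GJA1, the main ventricular gap junction protein, gave 8.05, 7.92 and 8.05 in the early HF arrays, against 8.06, 8.22 and 8.28 in the control arrays (log2 fold change -0.18, adjusted p = 0.54), and its other probe set differed by -0.58. In the list of stress-induced and fetal muscle genes, 0 of 31 passed, 10 had higher and 2 lower values at an unadjusted p under 0.05, and the median was 0.19. Without early HF array 1, or without control array 2, 6 of this list were higher at that p, while 7 passed the adjusted threshold without early HF array 2, FHL1 and CSRP3 included. FHL1, a LIM protein of stretched sarcomeres, had 11.87, 11.09 and 11.51 in the early HF arrays, against 10.62, 10.29 and 10.25 in the control arrays (log2 fold change 1.10, SE 0.21, adjusted p = 0.0643). CSRP3, the muscle LIM protein, had 13.86, 13.21 and 13.56 in the early HF arrays, against 12.94, 13.02 and 12.96 in the control arrays (log2 fold change 0.57, SE 0.14, adjusted p = 0.118).

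For a group of stress genes the early HF arrays disagreed among themselves. NPPB, the precursor of B-type natriuretic peptide, had log2 signals of 11.04, 6.34 and 8.34 in the early HF arrays, against 6.39, 6.30 and 6.38 in the control arrays. Arrays 1 and 3 were above the controls, array 2 lay among them, and the mean difference of 2.22 (SE 0.89) did not pass (adjusted p = 0.333). Without array 2 NPPB passed (log2 fold change 3.33, adjusted p = 0.0303). Leaving out an array that lay among the controls enlarges the difference by itself, so this adds no separate support. CCN2, connective tissue growth factor, had 12.37, 7.77 and 11.45 in the early HF arrays, against 8.20, 7.44 and 8.08 in the control arrays. The pattern was the same, with a difference of 2.62 (SE 0.88, adjusted p = 0.245), and without early HF array 2 the difference was 4.0 (adjusted p = 0.000656). ANKRD1, a titin-binding stress protein, had 13.94, 12.66 and 13.86 in the early HF arrays, against 12.87, 13.18 and 12.92 in the control arrays, with array 2 below all controls (log2 fold change 0.50, SE 0.28, adjusted p = 0.533). It also passed without array 2 (log2 fold change 0.91, adjusted p = 0.00979). ACTA1, skeletal alpha-actin, differed by 0.16 (adjusted p = 0.499).

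Immediate early and protein-folding genes had higher values mainly in early HF arrays 1 and 3. Of 23 immediate early genes 0 passed, and 4 were higher and 0 lower at an unadjusted p under 0.05 (list median 0.25), against 5.87% and 5.96% of all genes. MCL1, an antiapoptotic BCL2 relative, had 9.03, 8.04 and 9.12 in the early HF arrays, against 7.52, 7.36 and 7.57 in the control arrays (log2 fold change 1.25, SE 0.24, adjusted p = 0.0633). BTG2, an antiproliferative early response gene, had 8.78, 7.74 and 9.11 in the early HF arrays, against 7.39, 7.21 and 7.51 in the control arrays (log2 fold change 1.17, SE 0.28, adjusted p = 0.117). JUN, a subunit of the AP-1 transcription factor, had 9.30, 8.62 and 9.39 in the early HF arrays, against 8.43, 7.60 and 8.40 in the control arrays (log2 fold change 0.96, SE 0.24, adjusted p = 0.133). In MCL1, BTG2 and JUN array 2 was the lowest of the early HF group but lay above all controls. Without array 2, 10 genes of this list were higher at an unadjusted p under 0.05 (6.98% of all genes in that fit) and 6 passed the threshold (1.57% of all genes), MCL1, BTG2 and JUN included. Of 41 genes of endoplasmic reticulum stress and heat shock 0 passed, while 11 were higher and 0 lower at an unadjusted p under 0.05 (list median 0.17). DNAJB4, a heat shock protein 40 cochaperone, had 11.21, 10.28 and 11.34 in the early HF arrays, against 9.87, 9.73 and 9.97 in the control arrays (log2 fold change 1.09, SE 0.25, adjusted p = 0.104). The shifts of this list in early HF arrays 1, 2 and 3 were 0.26, 0.03 and 0.24, and without array 2 it held 8 genes past the threshold, all higher and DNAJB4 among them, against 1.57% of all genes. Its 11 higher genes at an unadjusted p became 18 without array 2 and 6 without array 1. In the plot of list shifts, array 2 lies closest to 0 for the sarcomere, stress, early response and protein-folding lists.

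**Figure D2:**
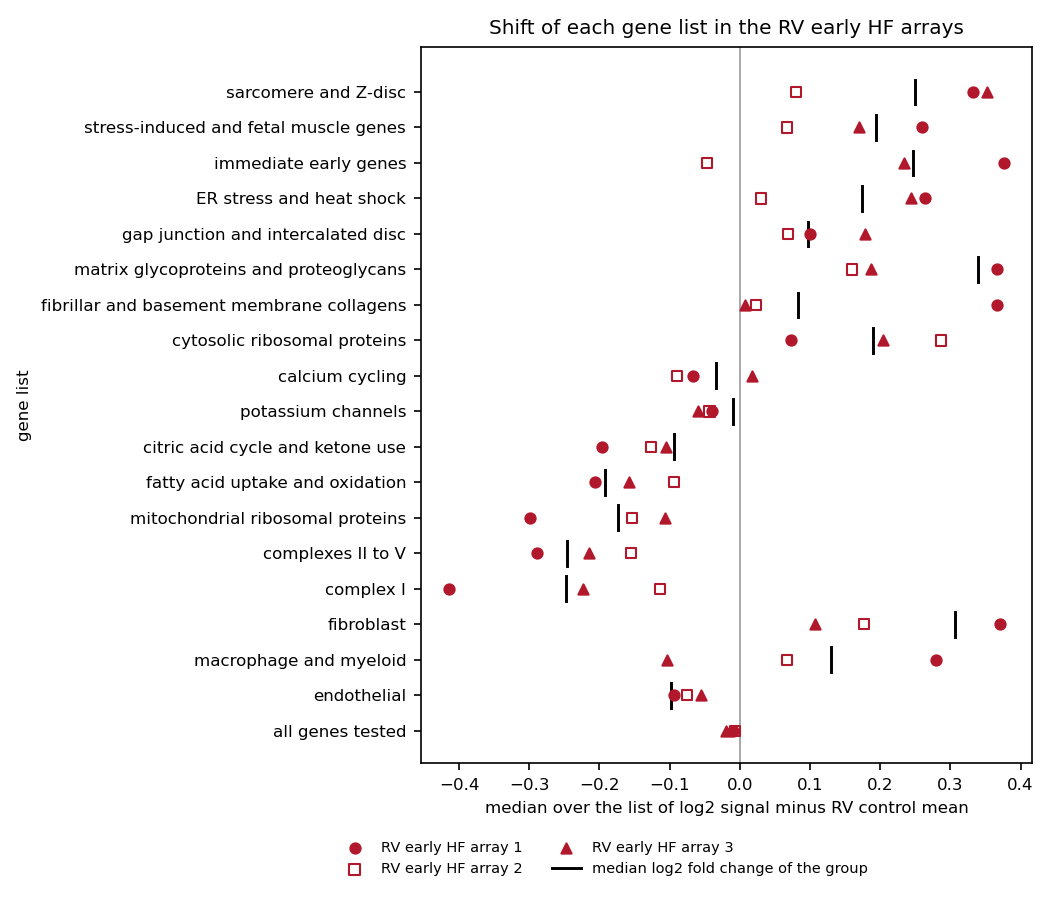
Median over each gene list of the log2 signal minus the RV control mean, in RV early HF array 1 (circles), 2 (open squares) and 3 (triangles), with the median log2 fold change of the list as a black bar. The respiratory chain and mitochondrial ribosome lists lie below 0 and the sarcomere and matrix glycoprotein lists above 0 in all 3 arrays, while all genes tested lie at -0.01 to -0.02.

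Transcripts of the respiratory chain were lower by a small amount in nearly every member. Complex I takes electrons from NADH, and 0 of its 34 subunit and assembly genes passed, but 15 were lower and 0 higher at an unadjusted p under 0.05, against 5.96% and 5.87% of all genes. The list median was -0.25, and 2 of 34 members had a positive difference, against 47% of all genes. NDUFAB1, the acyl carrier subunit, had 12.07, 12.12 and 12.10 in the early HF arrays, against 12.47, 12.51 and 12.50 in the control arrays (log2 fold change -0.40, SE 0.07, adjusted p = 0.062). NDUFV2, an iron-sulfur subunit of the NADH-oxidising module, had 11.50, 11.90 and 11.70 in the early HF arrays, against 12.19, 12.24 and 12.05 in the control arrays (log2 fold change -0.46, SE 0.11, adjusted p = 0.122). NDUFS7, also an iron-sulfur subunit, had 10.97, 11.55 and 11.21 in the early HF arrays, against 11.93, 11.70 and 11.72 in the control arrays (log2 fold change -0.54, SE 0.14, adjusted p = 0.135). In these 3 genes the groups did not overlap, but the probe set of NDUFAB1 with the largest SD differed by 0.96. In complexes II to V, 0 of 26 genes passed, 16 were lower and 0 higher at an unadjusted p under 0.05, and the median was -0.25. SDHB, the iron-sulfur subunit of succinate dehydrogenase, had 11.62, 11.76 and 11.64 in the early HF arrays, against 12.08, 12.09 and 11.98 in the control arrays (log2 fold change -0.38, SE 0.08, adjusted p = 0.0982). UQCRC1, a core protein of complex III, had 12.40, 12.59 and 12.35 in the early HF arrays, against 12.94, 12.91 and 12.77 in the control arrays (log2 fold change -0.43, SE 0.10, adjusted p = 0.108). The groups did not overlap in SDHB or UQCRC1 either. Among 72 mitochondrial ribosomal proteins, 19 were lower and 0 higher at an unadjusted p under 0.05 (median -0.17). MRPL48, of the large mitochondrial subunit, had 9.32, 9.74 and 9.58 in the early HF arrays, against 10.21, 10.24 and 10.18 in the control arrays (log2 fold change -0.66, SE 0.12, adjusted p = 0.0501), just outside the threshold. Complex I shifted by -0.41, -0.11 and -0.22 in early HF arrays 1, 2 and 3. Leaving out 1 array at a time moved the complex I median between -0.32 and -0.18. Without early HF array 1, or without control array 1, 9 complex I genes were lower at an unadjusted p under 0.05. Without early HF array 2, 6 complex I genes passed the adjusted threshold as lower, NDUFS7, NDUFV2 and NDUFAB1 included, and 4 of complexes II to V did, SDHB and UQCRC1 included, against 0.491% of all genes in that fit. For the mitochondrial ribosome the counts were 8 without early HF array 1 and 9 without control array 1, and 2 genes, with MRPL48, passed without early HF array 2.

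Enzymes that feed the respiratory chain were lower in part. Of 30 genes of the citric acid cycle and ketone use, 10 were lower and 0 higher at an unadjusted p under 0.05 (median -0.09). Over all genes the shares at that p were 5.96% lower and 5.87% higher. IDH3B, a subunit of mitochondrial isocitrate dehydrogenase, had 11.39, 11.78 and 11.52 in the early HF arrays, against 12.19, 12.16 and 12.11 in the control arrays (log2 fold change -0.59, SE 0.10, adjusted p = 0.0501), just outside the threshold. IDH3A, its catalytic subunit, had 10.29, 10.41 and 10.14 in the early HF arrays, against 10.86, 10.83 and 10.64 in the control arrays (log2 fold change -0.50, SE 0.11, adjusted p = 0.092). All early HF arrays of both genes lay below the controls, and both passed without early HF array 2. Of 40 genes of fatty acid uptake and oxidation, LPL rose, 9 were lower and 5 higher at an unadjusted p under 0.05, with a median of -0.19. The lower count was 4 without early HF array 1 and 5 without early HF array 3 or control array 1, and the higher count 3 without early HF array 1 or control array 3. HADHB, the thiolase of the mitochondrial trifunctional protein, had 11.97, 12.27 and 11.85 in the early HF arrays, against 12.61, 12.42 and 12.29 in the control arrays (log2 fold change -0.41, SE 0.12, adjusted p = 0.183). UCP3, the mitochondrial uncoupling protein of muscle, had 6.03, 7.92 and 8.07 in the early HF arrays, against 10.08, 9.44 and 8.36 in the control arrays. Early HF array 1 was the lowest and the controls spread over 8.36 to 10.08. The difference of -1.95 (SE 0.61) did not pass (adjusted p = 0.208). PPARGC1A, the coactivator of mitochondrial biogenesis, had 8.74, 9.66 and 9.09 in the early HF arrays, against 9.68, 9.92 and 9.75 in the control arrays (log2 fold change -0.62, SE 0.19, adjusted p = 0.209). HADHB and PPARGC1A passed as lower without early HF array 2. Glucose genes split: PDHA1, a subunit of pyruvate dehydrogenase, differed by -0.42 (adjusted p = 0.0913) and LDHA, the lactate dehydrogenase subunit that prevails in glycolytic tissue, by 0.72 (adjusted p = 0.0953), and both passed without early HF array 2. Of the 39 genes of glycolysis and glucose uptake, 3 were higher and 9 lower at an unadjusted p under 0.05. The 3 higher ones were 7.69% of the list, near the share of all genes.

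Transcripts of cytosolic ribosomal proteins had positive differences, unlike those of the mitochondrial ribosome. Of 51 tested, 48 had a positive difference and the median was 0.19, with 12 higher and 0 lower at an unadjusted p under 0.05 and none past the threshold. Over all genes 47% were positive, and 5.87% were higher and 5.96% lower at that p. RPL7, of the large subunit, had 11.55, 11.87 and 11.89 in the early HF arrays, against 11.17, 11.33 and 11.53 in the control arrays (log2 fold change 0.43, SE 0.13, adjusted p = 0.19). The shifts were 0.07, 0.29 and 0.20 in early HF arrays 1, 2 and 3, so array 2 was the furthest from the controls here. Ribosomal protein genes have many near-identical copies, so their probe sets are uncertain, and with probe sets ending in _s_at and _x_at left out 14 of 23 differences were positive (median 0.09). The count higher at an unadjusted p under 0.05 was 28 without early HF array 1, 2 without early HF array 2 and 4 without early HF array 3. It was 1 without control array 1 and likewise without control array 2.

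Matrix genes had higher early HF values, with more spread than the metabolic genes, and the collagen list shifted mainly in early HF array 1. Of 37 matrix glycoproteins and proteoglycans, CCN3 rose, and 16 were higher and 1 lower at an unadjusted p under 0.05 (median 0.34). Over all genes these shares were 5.87% and 5.96%. The higher count was 8 without early HF array 1. THBS1, the matricellular thrombospondin 1, had 8.73, 7.76 and 8.18 in the early HF arrays, against 7.48, 7.02 and 7.02 in the control arrays (log2 fold change 1.05, SE 0.22, adjusted p = 0.0875). LUM, the proteoglycan lumican, had 10.66, 11.09 and 10.92 in the early HF arrays, against 9.99, 10.26 and 10.30 in the control arrays (log2 fold change 0.71, SE 0.16, adjusted p = 0.0978). Neither gene had overlapping groups, and without early HF array 2 THBS1 passed and LUM did not. Of 17 collagen genes 0 passed and 5 were higher at an unadjusted p under 0.05 (median 0.08), or 2 without early HF array 1 or control array 2 and 3 without early HF array 2. The collagen list shifted by 0.37, 0.02 and 0.01 in early HF arrays 1, 2 and 3. Its mean log2 signal was 7.22 to 7.54 in early HF and 6.99 to 7.28 in control, which overlap. COL1A2, a chain of type I collagen, had 9.67, 9.37 and 9.19 in the early HF arrays, against 9.07, 8.28 and 8.54 in the control arrays (log2 fold change 0.78, SE 0.20, adjusted p = 0.146). COL1A1, the partner chain, had 9.04, 7.93 and 8.13 in the early HF arrays, against 8.16, 7.25 and 8.04 in the control arrays, with overlapping groups (adjusted p = 0.643). FN1, fibronectin, had 9.60, 9.03 and 8.82 in the early HF arrays, against 8.71, 8.22 and 8.89 in the control arrays (log2 fold change 0.54, SE 0.23, adjusted p = 0.358), and its groups overlapped as well. CTSK, the collagen-degrading cathepsin K, had 10.49, 9.15 and 10.07 in the early HF arrays, against 8.50, 8.64 and 8.47 in the control arrays (log2 fold change 1.37, SE 0.29, adjusted p = 0.0875), again with array 2 nearest the controls, and it passed without that array (log2 fold change 1.74, adjusted p = 0.0028). TGFB1, the profibrotic growth factor, had 6.98, 6.84 and 6.95 in the early HF arrays, against 7.23, 7.15 and 6.99 in the control arrays (log2 fold change -0.20, adjusted p = 0.4).

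Cell type markers were read beside these groups, and their part in the results was not tested. Of 23 fibroblast markers, 9 were higher and 0 lower at an unadjusted p under 0.05 (median 0.31), against 5.87% and 5.96% of all genes. The mean log2 signal over the list was 8.34 to 8.53 in early HF and 8.08 to 8.24 in control, so all early HF arrays were above the controls. Several of these markers, among them LUM and COL1A2, are also in the matrix lists. For 21 macrophage and myeloid markers the means were 6.69 to 7.24 in early HF and 6.70 to 6.89 in control, which overlap. Of these markers 1 (4.76%, near the share of all genes) was higher at an unadjusted p under 0.05 (median 0.13). Without early HF array 3 the count was 6 and the median 0.30, and without early HF array 1 they were 0 and 0.01. The count was 2 without early HF array 2 and 0 without control array 3, and the median 0.08 without control array 1. For 22 endothelial markers the list means were 7.68 to 7.75 in early HF and 7.62 to 7.94 in control (median change -0.10). The 21 ventricular myocyte markers averaged 11.84 to 11.87 in early HF and 11.75 to 11.88 in control (median change 0.02), which overlap as well. The lymphocyte, blood and mesothelial lists each had medians within 0.04 of 0 and no member past the threshold.

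Ion channel and calcium cycling genes did not pass the threshold with all arrays, but KCNIP2 (log2 fold change -1.58, adjusted p = 0.0408) and CAMK2B (log2 fold change -0.57, adjusted p = 0.0342) did without early HF array 2. Of 23 potassium channel genes, 5 were lower and 0 higher at an unadjusted p under 0.05 (median -0.01), and 3 were lower without early HF array 1 or 3 or control array 1. Over all genes 5.96% were lower and 5.87% higher at that p. KCNIP2, the accessory subunit of the transient outward current, had 8.98, 10.49 and 9.63 in the early HF arrays, against 11.24, 10.76 and 10.67 in the control arrays. The groups did not overlap at this probe set, but early HF array 2 was near the controls (log2 fold change -1.19, SE 0.38, adjusted p = 0.22). The other probe sets of KCNIP2 above the filter differed by -0.11 and -0.997. Neither passed, and the groups overlapped in both. KCNA5, which carries the ultrarapid delayed rectifier current, had 5.80, 5.87 and 5.78 in the early HF arrays, against 5.98, 5.99 and 6.17 in the control arrays (log2 fold change -0.23, SE 0.08, adjusted p = 0.255). KCNQ1, of the slow delayed rectifier, had 7.73, 7.75 and 7.73 in the early HF arrays, against 7.58, 7.80 and 7.76 in the control arrays (log2 fold change 0.02, adjusted p = 0.96). Of 33 calcium cycling genes, 4 were higher and 5 lower at an unadjusted p under 0.05 (median -0.03). Without early HF array 3 these counts were 2 and 3, and without control array 3, 2 were higher. CAMK2B, a calmodulin-dependent kinase subunit, had 7.24, 7.53 and 7.44 in the early HF arrays, against 7.98, 7.81 and 7.93 in the control arrays (log2 fold change -0.50, SE 0.11, adjusted p = 0.0832). RYR2, the calcium release channel, had 11.90, 12.21 and 12.02 in the early HF arrays, against 12.46, 12.42 and 12.41 in the control arrays (log2 fold change -0.39, SE 0.12, adjusted p = 0.215). ATP2A2, the sarcoplasmic reticulum calcium pump, had 12.87, 13.33 and 13.20 in the early HF arrays, against 13.51, 13.46 and 13.47 in the control arrays (log2 fold change -0.35, SE 0.12, adjusted p = 0.26). The groups did not overlap in CAMK2B, RYR2 and ATP2A2 at these probe sets, but a dimmer probe set of RYR2 had a difference of 0.09 and one of ATP2A2 0.17, with overlapping groups. PLN, the pump's inhibitor phospholamban, had 12.76, 13.10 and 13.10 in the early HF arrays, against 12.88, 13.01 and 13.09 in the control arrays (adjusted p = 0.988). No probe set carried the symbol of NPPA, MYH6 or SLN alone, and those of KCNJ2 and HCN4 were too dim for the filter.

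At 5 weeks the RV was measured against the same 3 control arrays, so the 2-week and 5-week differences share their controls and are given side by side. Late HF against control had 68 genes past the threshold (0.619%), 59 higher (0.537%) and 9 lower (0.0819%). PTGER4 had 7.52, 7.50 and 7.48 in the late HF arrays, a difference from control of 0.59 at 5 weeks (adjusted p = 0.086), beside 1.45 at 2 weeks. MYOM1 differed by 0.88 at 2 weeks and 0.29 at 5 weeks (adjusted p = 0.282 at 5 weeks). CCN3 differed by 1.11 at 2 weeks and 0.20 at 5 weeks (adjusted p = 0.624 at 5 weeks), whereas CYP1B1 differed by 1.51 and 1.55 (adjusted p = 0.0145 at 5 weeks). The sarcomere list had medians of 0.25 at 2 weeks and 0.07 at 5 weeks, complex I -0.25 and -0.08, collagens 0.08 and 0.36, and fibroblast markers 0.31 and 0.50. FN1 measured 10.01, 10.58 and 10.37 in the late HF arrays (1.71 above control on the log2 scale, adjusted p = 0.0167), beside a difference of 0.54 at 2 weeks.

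The direct test of late HF minus early HF, which does not rest on the controls' level, gave 0 genes (0%) past the threshold in limma and 978 genes (8.9%) at an unadjusted p under 0.05. The smallest adjusted p was that of CRYM, a thyroid hormone-binding crystallin, with 7.80, 8.09 and 8.39 in the late HF arrays and 5.66, 6.59 and 5.90 in the early HF arrays (difference 2.04, adjusted p = 0.0652). THBS4, the matricellular thrombospondin 4, had 7.36, 7.46 and 7.77 in the late HF arrays and 6.63, 5.82 and 6.08 in the early HF arrays (difference 1.35, adjusted p = 0.111). LMO7 had 9.40, 9.44 and 9.24 in the late HF arrays and 10.56, 10.09 and 10.65 in the early HF arrays (difference -1.07, adjusted p = 0.111). This test gave 54 genes without early HF array 2, 8 higher and 46 lower at 5 weeks. That array had a higher mean correlation with the late HF arrays (0.984) than with the other early HF arrays (0.979). In the plot by stage, the early HF array numbered 2 lies at or next to the control range for NPPB, CCN2 and KCNIP2.

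**Figure D3:**
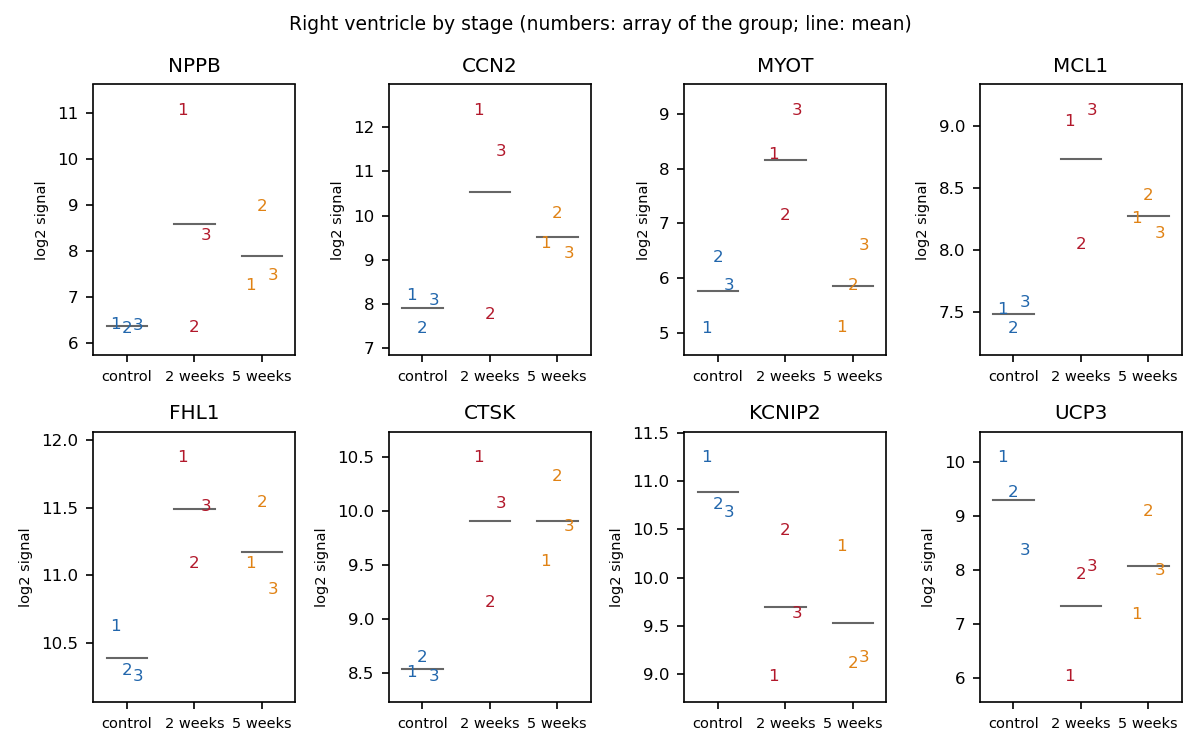
Log2 signal of 8 genes in the right ventricle of control dogs and after 2 and 5 weeks of pacing, with each array drawn as its number within the group and the group mean as a line. At 2 weeks array 2 is the lowest of its group in NPPB, CCN2, MYOT, MCL1, FHL1 and CTSK and the highest in KCNIP2.

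Whether the RV responded like the RA at 2 weeks was tested as the early HF effect in the RV minus that in the RA, over 12 arrays. In this test 5 genes (0.0455%) passed, all with a lower effect in the RV. Arrays of the 2 chambers with the same condition and number deviated together, so a fit with the pair as a block was also made. It gave 94 genes (0.855%), 41 with a higher (0.373%) and 53 with a lower (0.482%) effect in the RV, and the 5 genes were among them. POSTN, the matricellular periostin, had 5.29, 4.18 and 4.21 in the RV early HF arrays, against 4.13, 3.93 and 4.01 in the RV control arrays. In the RA it had 9.52, 7.78 and 9.14 in early HF, against 3.97, 4.15 and 4.48 in control. The RV effect minus the RA effect was -4.08 (SE 0.53, adjusted p = 0.0207), and the groups other than RA early HF had means under 5.31, so the RA effect is a lower bound. THBS4 had 10.79, 9.0 and 10.61 in the RA early HF arrays, against 5.76, 5.55 and 5.46 in the RA control arrays. Its RV arrays had 6.63, 5.82 and 6.08 in early HF, against 5.93, 5.59 and 5.46 in control, a difference between the chamber effects of -4.03 (SE 0.51, adjusted p = 0.0207).

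For NEFL the RA groups were both near background, at 6.01, 4.77 and 5.35 in early HF, against 5.69, 4.57 and 5.29 in control, so its difference of -4.06 (SE 0.54, adjusted p = 0.0224) lay in the RV arrays. DLA-DMA, an MHC class II chaperone chain, had 6.50, 6.39 and 6.30 in RV early HF, against 6.85, 7.29 and 6.75 in RV control, and 7.67, 6.78 and 7.53 in RA early HF, against 6.20, 5.93 and 5.74 in RA control. The early HF arrays were thus below the controls in the RV and above them in the RA (difference -1.94, SE 0.29, adjusted p = 0.0416). KLHL5, a kelch-like protein of ubiquitin ligases, differed by -1.40 (SE 0.17, adjusted p = 0.0207), with an RV effect of -0.32 and an RA effect of 1.08. No gene passed this test in limma without RV early HF array 3, RV control array 1 or 3, or RA control array 1 or 2. Nor did any in the fits over all 18 arrays or over the 17 that leave out an RA late HF array with RV markers, while without RA early HF array 2 the test gave 50 genes.

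With the pairs as a block, the genes with a higher effect in the RV included those of the M-band and Z-disc. MYOM1 had 12.25, 11.80 and 11.57 in the RA early HF arrays, against 12.01, 12.16 and 12.07 in the RA control arrays, so that its RV effect exceeded its RA effect by 1.09 (adjusted p = 0.00876 with the block, adjusted p = 0.107 without it). MYOZ1, a Z-disc protein that binds calcineurin, had an RV effect of 0.71 and an RA effect of -0.98 (difference 1.69, adjusted p = 0.0243 with the block), and did not pass without the block. Of the 44 sarcomere and Z-disc genes, 4 passed as higher in this fit and 1 as lower, against 0.373% and 0.482% of all genes. The lower one was MYL3. The median of the list was 0.45.

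Among the genes with a lower effect in the RV were immune and matrix genes. Of 14 MHC class II genes, 7 had a lower effect in the RV with the block, of 21 macrophage and myeloid markers 4 did, and of 17 collagens 3 did. Over all genes 0.482% had a lower effect in that fit. The class II genes are close copies of one another, so their probe sets are uncertain. The macrophage list had a median change of 0.13 in the RV and 0.90 in the RA, and the class II list 0.05 in the RV and 1.17 in the RA. CCL2, a chemokine that attracts monocytes, had an RV effect of 0.34 and an RA effect of 2.27 (difference -1.93, adjusted p = 0.00948 with the block). COL1A1 had an RV effect of 0.55 and an RA effect of 2.34 (difference -1.79, adjusted p = 0.015 with the block), and FN1 had 0.54 in the RV and 1.98 in the RA (difference -1.44, adjusted p = 0.0303 with the block). CCL2, COL1A1 and FN1 did not pass without the block. Complex I, by contrast, had medians of -0.25 in the RV and -0.31 in the RA, and 0 of its genes passed. Ventricular markers also differed between the RA groups: MYL2 was at 9.73, 12.06 and 10.53 in the RA early HF arrays, against 6.51, 6.04 and 9.38 in the RA control arrays, and MYL3, the ventricular essential light chain, at 9.24, 10.86 and 9.04, against 7.59, 7.91 and 7.97. The part of ventricular tissue in the RA values was not tested.

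**Figure D4:**
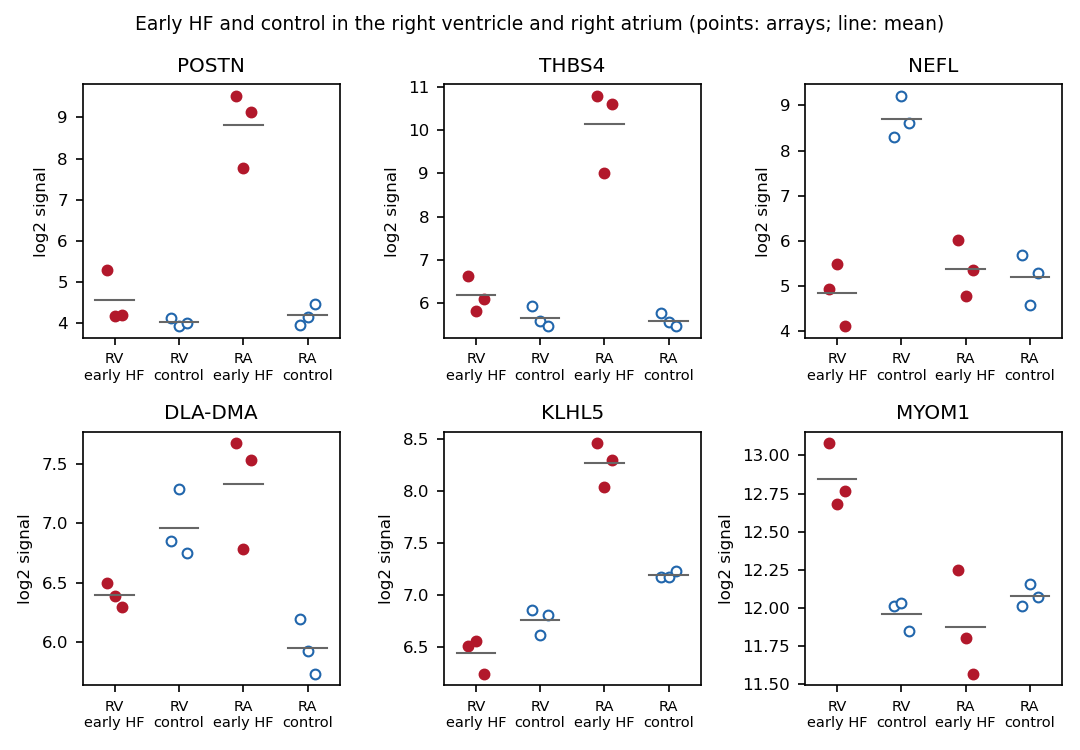
Log2 signal of the 5 genes past the threshold in the test of RV against RA effects, and of MYOM1, in RV early HF, RV control, RA early HF and RA control arrays (3 points each, with the mean as a line). POSTN and THBS4 are high in the RA early HF arrays alone, NEFL in the RV control arrays alone, and MYOM1 is highest in the RV early HF arrays.

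**Figure D5:**
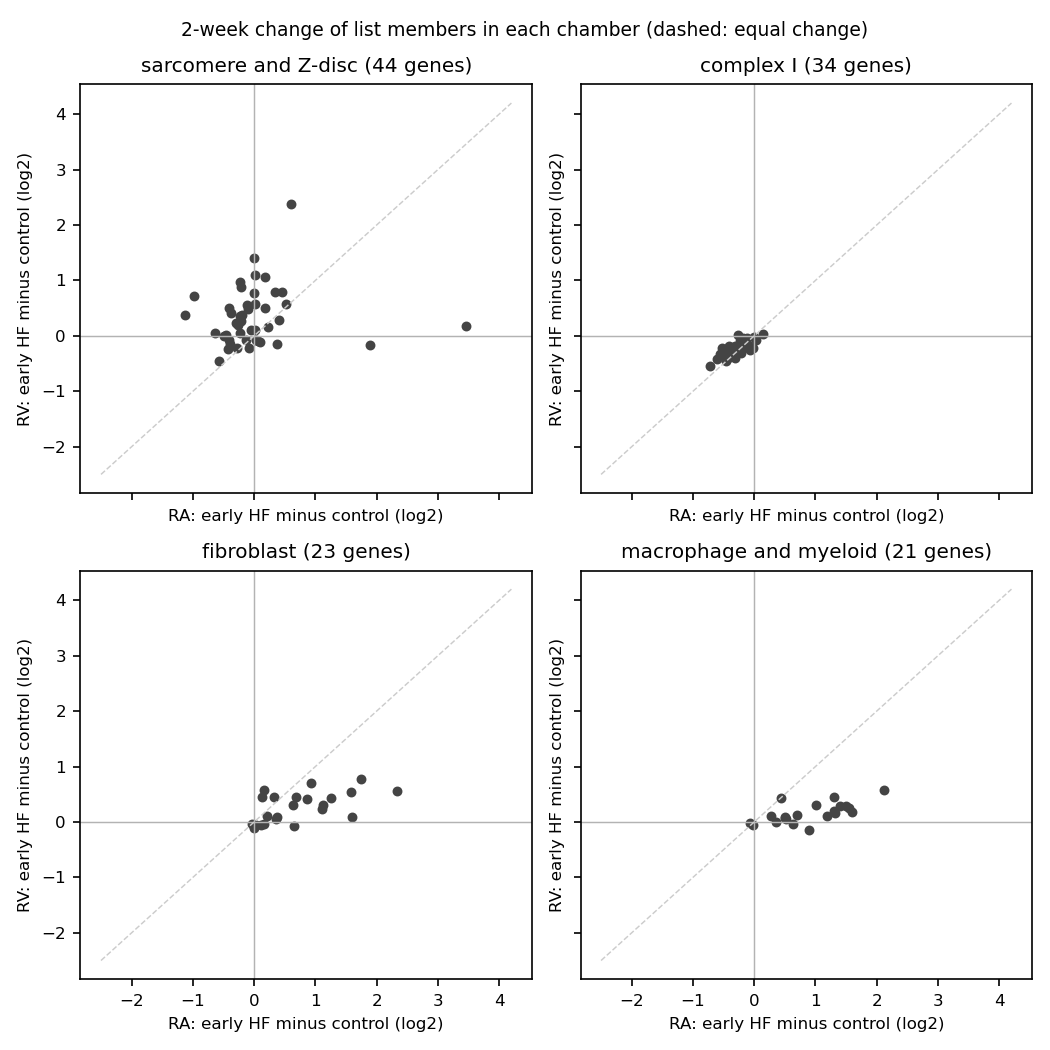
Early HF minus control on the log2 scale for each member of 4 gene lists, with the RV on the vertical and the RA on the horizontal axis and equal change as a dashed line. Complex I genes lie along that line near the origin, fibroblast and macrophage genes spread along the RA axis, and most sarcomere genes lie above the dashed line.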

How the data were processed

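Total RNA of 18 samples was hybridised to Affymetrix Canine_2 arrays. The deposited value table holds log2 signals per probe set; the submitters' processing notes name MAS5 without a version, and the log2 scale was read from the values, since the labels do not state it. Whether the authors scaled the arrays further is not given in the sources used here; array medians were 5.65 to 5.75, so the values were used as deposited. Control probe sets (111 of 43035) and the lowest 40% by mean signal (under 5.31) were left out, which left 25752. Genes were named from the platform annotation: of 42924 probe sets, 29254 had 1 symbol, 439 several and 13231 none, and only those with 1 symbol were used.

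The 9 RV arrays were fitted in 3 groups with limma 3.58.1 (R 4.3.3, trended prior), with Benjamini-Hochberg adjustment over the 25752 probe sets and a threshold of 0.05. RV and RA effects were compared over 12 arrays, without and with a block. Each block was the RV and RA array of the same condition and number, since labels give the number but not the dog. Same-numbered arrays of the 2 chambers correlated in their deviations from the group means in all 6 pairs, which is where the pairing comes from. Their r was 0.36, 0.24 and 0.42 in control, and 0.17, 0.26 and 0.15 in early HF. The fit was tested on simulated data. Named genes are up to 15 per direction with the largest change among non-overlapping genes past the threshold, 36 classic heart failure genes whatever their p, per list up to 4 members of smallest p and up to 8 past the threshold, and up to 8 per direction of smallest p in the other tests. The text does not describe all of them. Of the 36, ADRB1, CACNA1C, CIRBP, COL3A1, GJA5, KCND3, KCNH2, MYLK3, SLC8A1 and TIMP1 did not pass and were left out, although CIRBP passed as lower without early HF array 2. Members and gene lists were chosen with earlier results of these data known. The 46 lists hold 1648 genes, 1165 of them tested. Alternatives covered the arrays fitted, normalization, filter, probe set choice, prior, weights and leaving out each array. No sequences were analysed here.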

Additional observations from a re-analysis of the deposited data

Results flagged for a closer look

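The effect of 2 weeks of pacing differed between the chambers in 5 genes by the test of that difference itself, which sets early HF minus control in the RV against early HF minus control in the RA. Each log2 value here is the RV effect minus the RA effect from limma's test over 12 arrays. POSTN had -4.08, with an RV effect of 0.54 and an RA effect of 4.61. THBS4 had -4.03, with 0.52 in the RV and 4.54 in the RA. NEFL had -4.06, with -3.86 in the RV and 0.19 in the RA. DLA-DMA had -1.94, with -0.57 in the RV and 1.37 in the RA. KLHL5 had -1.40, with -0.32 in the RV and 1.08 in the RA.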

How the results depend on the processing

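The 9-array fit gave 30 genes in early HF against control (21 higher, 9 lower). The count was 11 (10 and 1) with all 18 arrays, 58 (42 and 16) with 17 arrays, which leave out an RA late HF array that carries RV markers, and 11 (7 and 4) with the 6 arrays of both groups alone. It was 50 (25 and 25) after quantile normalization, 65 (44 and 21) with array weights, 36 (22 and 14) with 1 probe set per gene in the fit and 35 (21 and 14) without a trended prior. Leaving out 1 array at a time gave 1 to 226 genes, with 1 to 172 higher and 0 to 54 lower. USP28 changed to -0.07 (adjusted p = 0.886) when probe sets ending in _s_at and _x_at were left out and another probe set stood for it. The other 29 genes kept their direction in all alternatives that measured them. For the named genes in early HF against control, 5207 values stayed on their side of the threshold over the alternatives, 251 lost it, 101 passed it and 1 reversed. Over this and the other tests together, 39 values that did not pass changed sign. Late HF minus early HF gave 0 genes, 1 without the signal filter, 1 with array weights and 0 to 54 with 1 array left out. The difference between chambers gave 5 genes, 94 with the replicate block, 0 with 18 arrays and likewise 0 with 17, and 0 to 50 with 1 array left out. RV early HF and control arrays with the same number did not deviate together (r from -0.07 to 0.00), and with that number as a block 35 genes passed (29 higher, 6 lower). List medians and counts under the alternatives, the fits without early HF array 2 in particular, and the nerve marker means without members past the threshold, were chosen after seeing the data. With 3 arrays a group, genes of small change or large spread can be missed, and probe sets near background give only bounds.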

Other observations

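Genes of cell adhesion and the cytoskeleton had higher early HF values without any past the threshold. Of 44 tested, 13 were higher and 0 lower at an unadjusted p under 0.05, with a median log2 fold change of 0.20, against -0.01 over all genes. At that p 5.87% of all genes were higher and 5.96% lower. The list's higher count was 7 without control array 2. S100A10, a calcium-binding partner of annexin A2, had 9.57, 9.17 and 9.17 in the early HF arrays, against 8.76, 8.47 and 8.79 in the control arrays (log2 fold change 0.63, SE 0.15, adjusted p = 0.118). GSN, the actin-severing protein gelsolin, had 12.55, 12.37 and 12.43 in the early HF arrays, against 12.04, 11.98 and 11.98 in the control arrays (log2 fold change 0.45, SE 0.14, adjusted p = 0.207). S100A6, also a calcium-binding protein, had 10.32, 10.78 and 10.28 in the early HF arrays, against 10.19, 9.91 and 9.69 in the control arrays (log2 fold change 0.53, SE 0.16, adjusted p = 0.208). Of 22 complement genes, 5 were higher and 0 lower at an unadjusted p under 0.05 (median 0.12), and 8 were higher without early HF array 3. CLU, the secreted chaperone clusterin, had 9.83, 9.24 and 9.33 in the early HF arrays, against 8.90, 8.46 and 8.32 in the control arrays (log2 fold change 0.91, SE 0.19, adjusted p = 0.0817). C3, the central complement protein, had 7.34, 7.96 and 7.05 in the early HF arrays, against 6.22, 5.67 and 5.49 in the control arrays (log2 fold change 1.66, SE 0.38, adjusted p = 0.104).

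Several other groups had medians near that of all genes. The median log2 fold change was -0.02 over 27 interferon response genes, -0.01 over 34 cell cycle genes and 0.02 over 38 genes of autophagy and the lysosome, with no member past the threshold. By contrast, the 22 adipocyte markers had a median of 0.19, against -0.01 over all genes, with LPL past the threshold. The list shifted by 0.12, 0.32 and -0.07 in early HF arrays 1, 2 and 3, and its median was 0.03 without array 2, which also had the highest LPL signal. For these markers the mean log2 signal was 7.18 to 7.90 in early HF and 6.99 to 7.33 in control, which overlap. NFIL3, a repressor that acts in the circadian clock, had 9.35, 8.79 and 9.24 in the early HF arrays, against 8.18, 7.96 and 8.17 in the control arrays (log2 fold change 1.02, SE 0.20, adjusted p = 0.0727). BHLHE41, a clock repressor as well, had 6.96, 6.60 and 6.98 in the early HF arrays, against 7.29, 7.23 and 7.23 in the control arrays (log2 fold change -0.40, SE 0.11, adjusted p = 0.147). HMGB2, a chromatin protein of dividing cells, had 8.25, 8.10 and 8.36 in the early HF arrays, against 7.92, 7.66 and 7.73 in the control arrays (log2 fold change 0.47, SE 0.12, adjusted p = 0.14).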
